A study of Mus musculus with 9 samples.

Results

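The WNT ligands were 10 genes, Wnt3, Wnt3a, Wnt4, Wnt5a, Wnt5b, Wnt6, Wnt8a, Wnt10a, Wnt10b and Wnt11, chosen by name together with every array probe annotated to them. All 10 had a probe, and together they held 18 of the 45281 probes on the array. A probe was tested where some region had it detected on each of its 3 arrays, with a detection p under 0.01 against the array's negative control beads. By that filter 12 of the 18 probes, for 7 of the 10 genes, were tested, among 12437 tested probes and 7820 named genes in all.

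The samples came from the tails of E10.5 mouse embryos, where 3 regions were dissected and compared. The chordoneural hinge (CNH) is the place where the caudal neural tube meets the end of the notochord and is known to hold axial progenitors. The tail bud mesoderm (TBM) is the mesenchyme of the tail tip. Unsegmented tissue between the tail bud and the last somite forms the presomitic mesoderm (PSM). Each region had 3 arrays, replicates 1, 2 and 3, for 9 arrays in all, and no group carried a treatment. Embryos of CD1 and C57Bl/6J mothers were used, but no source assigned a strain or a genotype to a sample. Each RNA sample was a pool of dissected pieces. Per region, the methods count 1 technical and 2 biological replicates but do not name the arrays, so the p-values measure the spread between these arrays, part of which is technical. In such bulk tissue, fewer cells of a type and less RNA per cell cannot be told apart.

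WNTs are secreted, lipid-modified glycoproteins. They bind Frizzled receptors, and with the LRP co-receptors they stabilise beta-catenin, which then acts with TCF and LEF factors on target genes. Other WNTs act mainly without beta-catenin, through receptors such as Ror2 and Ptk7 and the planar cell polarity proteins. In the mouse tail bud Wnt3a is known for keeping axial progenitors and for directing their descendants to mesoderm, and embryos without it stop making their body axis early.

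Replicate 3 stood apart in every region. Its median signal was 63.0 to 67.1 on the linear scale, against 76.8 to 80.4 for replicates 1 and 2, while the share of probes detected was 30.1% to 32.7% on all 9 arrays. The deviations of arrays from their region means correlated at 0.858 to 0.964 for arrays of the same replicate number, at 0.863 to 0.893 between numbers 1 and 2, and at -0.930 to -0.895 between numbers 3 and 1 or 2. Within a region, values of replicates 1 and 2 correlated at 0.994 to 0.995, and each correlated with replicate 3 at 0.821 to 0.866. Which arrays are the technical replicates was not tested. With 2 biological replicates per region in the methods, 3 of 3 replicate numbers are not 3 biological replicates. The replicate number was a block in the fit, and differences are given within each replicate number. Set beside the labels, the 6 tested markers of tail bud progenitors of 8 listed were all higher in CNH than in PSM. In TBM 5 of 6 were higher than in PSM. Of 9 presomitic mesoderm markers 5 were tested, of which 3 were lower in CNH and 2 lower in TBM than in PSM. Of all tested probes, 6.66% were called higher and 4.54% lower in CNH than in PSM, and 5.37% and 4.05% in TBM. The lists were chosen with earlier results of these data known. The paper names Fgf8, Fgf17 and Evx1 among its most CNH-enriched genes, so these counts are not an independent check of the labels. It also names Wnt3a, Cdx2 and Sp5 there, and lists Wnt5b, Cyp26a1, Fzd10, Rspo3, Notum and Ccnd1 as CNH-enriched. The values of these genes given below come from the same arrays. Brachyury (T), which the paper names as well, is in the tail bud list but had no probe matched by symbol. Mesp1 and Ripply2, which mark the anterior PSM, were detected on no CNH or TBM array. These markers passed the detection filter through PSM alone, and Nkx1-2 and Cyp26a1 of the tail bud list through CNH and TBM alone. That favoured the directions seen. Tbx6, a factor of the whole PSM and of the tail bud, was not called, with log2 fold changes of 0.12 in CNH and 0.54 in TBM over PSM (limma adjusted p = 0.513 and 0.00873, the second under the fold limit).

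By brightest probe, the ligands fell into a set higher in CNH and TBM, a set higher in PSM, and Wnt5a, which differed little. The other Wnt5a probes were called higher in TBM than in PSM, at log2 fold changes of 0.76 and 0.78, and were not called in CNH. Wnt3a, Wnt5b and Wnt10a rose in CNH over PSM, by 9.19-fold, 5.69-fold and 2.91-fold. Wnt4, Wnt6 and Wnt8a fell in CNH against PSM, by at least 2.27-fold for Wnt4, by 1.95-fold for Wnt6 and by 2.07-fold for Wnt8a, which was detected on 1 of 3 CNH arrays. In TBM against PSM, Wnt3a, Wnt5b and Wnt10a also rose and Wnt4, Wnt6 and Wnt8a also fell, and no ligand was called different between CNH and TBM. In numbers, 6 of the 7 tested ligands were called between CNH and PSM, where 11.2% of all tested probes were called, 6.66% higher and 4.54% lower in CNH. Between TBM and PSM 6 of 7 were called, against 9.42% of all tested probes, 5.37% higher and 4.05% lower in TBM. Wnt4 and Wnt8a passed the detection filter through PSM alone, and Wnt10a through CNH and TBM alone. For these ligands the filter favoured the direction that was seen, so their part in the counts against PSM is not independent of it. The shares are of probes, while each ligand was counted once. Between CNH and TBM 0 of 7 were called, against 1.01% of all tested probes, and 0 of the 7 had an adjusted p under 0.05 in limma. For Wnt4 and Wnt8a, each detected on 1 of the 6 CNH and TBM arrays, that count does not compare the regions, since both lay near background. A gene was called at a limma p-value adjusted over all tested probes under 0.05 with a fold of at least 1.5, and its brightest tested probe stood for it. The median log2 fold change of the 7 was 0.32, 0.51 and -0.03 for CNH over PSM, TBM over PSM and CNH over TBM, beside -0.04, -0.02 and -0.02 for all tested probes. On the authors' deposited normalized values the same test called 2 of 7, Wnt3a and Wnt5b, in each comparison with PSM, and without the replicate block it called 3 of 7 for CNH and 2 of 7 for TBM. The comparisons of CNH and of TBM with PSM share the PSM arrays and are given side by side for that reason.

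**Figure D1:**
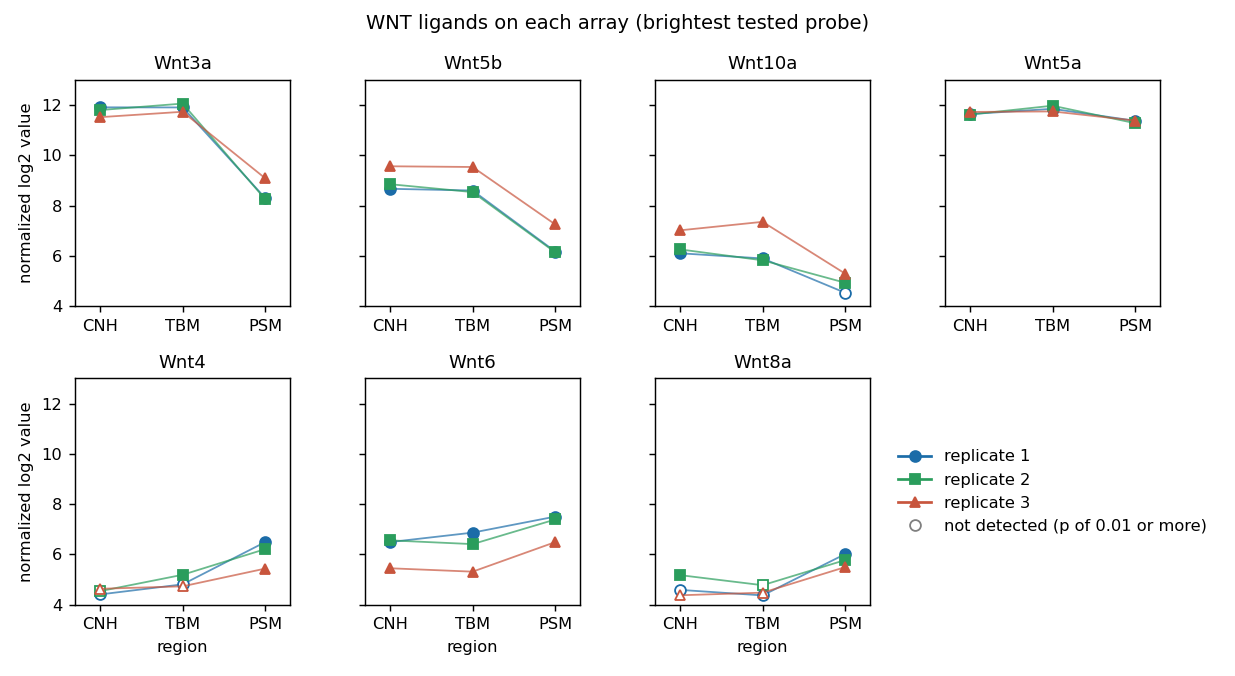
Normalized log2 value of the brightest tested probe of the 7 tested WNT ligands on each of the 9 arrays, by region, with lines joining arrays of the same replicate number and open symbols for arrays where the probe was not detected. Wnt3a, Wnt5b and Wnt10a sit lower in PSM and Wnt4, Wnt6 and Wnt8a sit higher in PSM within every replicate number, and levels can be read within a panel only.

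Wnt3a, the axial progenitor ligand, had the largest difference among the ligands. Its promoter is printed because it is the ligand that separated the regions most. The window covers the 250 bases before the RefSeq start at chr11:59290752-59291001 on the minus strand of GRCm38.p6, read 5′ to 3′ on the gene's strand.
Wnt3a promoter: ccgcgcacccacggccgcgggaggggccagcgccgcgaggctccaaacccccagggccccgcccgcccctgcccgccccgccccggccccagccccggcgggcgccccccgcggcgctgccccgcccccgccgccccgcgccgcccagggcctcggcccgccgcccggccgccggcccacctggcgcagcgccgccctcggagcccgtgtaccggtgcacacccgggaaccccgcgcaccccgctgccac
This window was 87.6% G or C and held 41 CpG dinucleotides, where the median of 32851 RefSeq windows of the same length was 6. It held no match on either strand to the TCF/LEF motifs CTTTGAT or CTTTGTT, to the T-box motif TCACAC or to the CDX motif TTTATG.

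The Wnt3a probe read 11.90, 11.79 and 11.51 on CNH replicates 1, 2 and 3, 11.90, 12.05 and 11.73 on the TBM replicates and 8.29, 8.24 and 9.08 on the PSM replicates, as normalized log2 values. Every CNH and TBM array was above every PSM array, and the CNH and TBM arrays overlapped. The log2 fold change was 3.20 (SE 0.22, limma adjusted p = 6.51e-06, higher in 3 of 3 replicate numbers) for CNH over PSM and 3.36 (SE 0.22, adjusted p = 6.30e-06, 3 of 3) for TBM over PSM. The step was smaller in replicate 3, where CNH exceeded PSM by 2.43, than in replicates 1 and 2, where it did so by 3.61 and 3.55. CNH and TBM differed by -0.16 in CNH over TBM, with a 95% interval of -0.64 to 0.33 and an adjusted p of 0.831 in limma.

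Wnt5b belongs to the WNT5 subfamily, which acts mainly without beta-catenin. RefSeq gave it 3 start sites, and the window before the most downstream start is printed because it alone among the windows of tested ligands held matches to the 4 motifs. It lies at chr6:119449387-119449636 on the minus strand of GRCm38.p6, and the capitals mark TTTATG, beginning 222 bases before the start, and CTTTGAT, beginning 71 bases before it.
Wnt5b promoter: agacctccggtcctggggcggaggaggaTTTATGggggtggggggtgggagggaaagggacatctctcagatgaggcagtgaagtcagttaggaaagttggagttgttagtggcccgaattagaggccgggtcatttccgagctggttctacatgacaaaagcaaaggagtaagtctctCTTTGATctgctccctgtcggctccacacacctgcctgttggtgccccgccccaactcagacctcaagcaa
The other Wnt5b windows held no match. CTTTGAT was present in 3.21% and TTTATG in 10.8% of all 32851 windows of the same length, and a match is not shown to be a site. Wnt11, which was detected on no array, also held a CTTTGAT match on the other strand in 1 of its windows, 51 bases before the start.

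Wnt5b read 8.66, 8.85 and 9.56 on the CNH arrays, 8.60, 8.53 and 9.53 on the TBM arrays and 6.17, 6.14 and 7.25 on the PSM arrays. All PSM arrays lay below all others, and replicate 3 was the highest in each region, by 0.95 on average over the mean of replicates 1 and 2. The within-number difference was even, at 2.50, 2.71 and 2.31 for CNH minus PSM and 2.43, 2.40 and 2.29 for TBM minus PSM. The log2 fold change was 2.51 (SE 0.11, limma adjusted p = 4.85e-07) for CNH over PSM and 2.37 (SE 0.11, adjusted p = 9.88e-07) for TBM over PSM. CNH over TBM was 0.14, with a 95% interval of -0.12 to 0.39 and an adjusted p of 0.688.

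Wnt10a, a beta-catenin type ligand best known from teeth and hair, was the third that was higher in CNH and TBM. It read 6.10, 6.26 and 7.01 on the CNH arrays, 5.90, 5.82 and 7.35 on the TBM arrays and 4.53, 4.93 and 5.29 on the PSM arrays, where it was detected on 2 of 3. No PSM array reached the CNH or TBM arrays. The log2 fold change was 1.54 (SE 0.19, limma adjusted p = 0.000246) for CNH over PSM and 1.44 (SE 0.19, adjusted p = 0.000476) for TBM over PSM. In TBM the 3 replicate numbers differed in size, at 1.37, 0.89 and 2.06, all upward. CNH over TBM was 0.10, with a 95% interval of -0.31 to 0.51 and an adjusted p of 0.878. Without the replicate block the calls of Wnt10a were lost, with limma adjusted p = 0.187 for CNH and 0.271 for TBM.

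Wnt4 is known for turning kidney mesenchyme into epithelium and for its role in the female gonad. Its promoter window is printed because its base composition was like that of Wnt3a although its levels ran the other way. It lies at chr4:137277385-137277634 on the plus strand of GRCm38.p6, with 44 CpG dinucleotides and 85.2% G or C, and held no match to the 4 motifs.
Wnt4 promoter: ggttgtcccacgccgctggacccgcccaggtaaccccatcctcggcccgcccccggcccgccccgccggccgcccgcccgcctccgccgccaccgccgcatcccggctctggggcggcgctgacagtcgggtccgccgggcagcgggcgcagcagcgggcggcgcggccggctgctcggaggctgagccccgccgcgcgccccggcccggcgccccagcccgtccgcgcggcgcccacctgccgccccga
The Wnt6 window was of the same kind, with 28 CpG dinucleotides, 79.6% G or C and no match.

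The brighter Wnt4 probe read 4.41, 4.54 and 4.64 on the CNH arrays, where it was detected on none, 4.81, 5.19 and 4.73 on the TBM arrays, where it was detected on 1, and 6.50, 6.21 and 5.44 on the PSM arrays. Every PSM array was above every other array, and the gap was narrowest in replicate 3. Wnt4 was at least 2.27-fold lower in CNH than in PSM, taking the higher of the probe's value and the array's lowest detected value as the CNH level (fitted log2 fold change -1.52, SE 0.21, limma adjusted p = 0.000597). In TBM the log2 fold change over PSM was -1.14 (SE 0.21, adjusted p = 0.00436). The other tested Wnt4 probe was detected on no CNH or TBM array and was at least 1.34-fold and 1.30-fold lower in CNH and TBM than in PSM, with adjusted p = 0.00641 and 0.00477. CNH and TBM both lay near background on these probes and could not be set against each other. The TBM call was lost without the replicate block, at an adjusted p of 0.119 in limma, and without the filter on dim probes, at 0.0526, and with no background correction the difference of -0.53 missed the fold limit.

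Wnt6, known from the surface ectoderm and for making somites epithelial, had 2 tested probes. The brighter read 6.49, 6.56 and 5.45 on the CNH arrays, 6.87, 6.41 and 5.32 on the TBM arrays and 7.51, 7.39 and 6.49 on the PSM arrays. The regions overlapped across numbers, because replicate 3 lay -1.07, -1.32 and -0.96 from the mean of replicates 1 and 2 in CNH, TBM and PSM. Within each number Wnt6 was lower in CNH than in PSM, with differences of -1.01, -0.83 and -1.04, and lower in TBM, with -0.64, -0.98 and -1.18. The log2 fold change was -0.96 (SE 0.13, limma adjusted p = 0.000631) and -0.93 (SE 0.13, adjusted p = 0.000940). The second probe gave -0.92 and -1.11, both called lower. CNH over TBM was -0.03, with a 95% interval of -0.33 to 0.27 and an adjusted p of 0.953. Without the replicate block the adjusted p was 0.725 for CNH and 0.895 for TBM, so the calls rest on the differences within replicate numbers. With no background correction the TBM difference was -0.58 and missed the fold limit.

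Wnt6 and Wnt10a are next to each other in the order of protein-coding genes of GRCm38.p6, and they went opposite ways in both comparisons with PSM. Their values, with the means of the replicate numbers removed, correlated at Pearson r = -0.96 over the 9 arrays, which share their libraries and the region differences already given.

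Wnt8a, a beta-catenin type ligand of the early primitive streak, read 4.59, 5.18 and 4.38 on the CNH arrays, 4.37, 4.78 and 4.48 on the TBM arrays and 6.02, 5.78 and 5.50 on the PSM arrays by its brighter tested probe. It was detected on 1 of 3 CNH arrays, on 0 of 3 TBM arrays and on 3 of 3 PSM arrays, and no PSM array overlapped the others. Wnt8a had a log2 fold change of -1.05 in CNH over PSM (SE 0.16, limma adjusted p = 0.00134) and was at least 1.81-fold lower in TBM than in PSM (fitted log2 fold change -1.22, SE 0.16, adjusted p = 0.000619). The other tested probe was detected on no CNH or TBM array and was at least 1.68-fold and 1.63-fold lower. CNH and TBM both lay near background on these probes and could not be set against each other. Without the replicate block the calls were lost, with limma adjusted p = 0.0930 for CNH and 0.0595 for TBM. With no background correction or with an offset of 50 the CNH difference shrank to -0.46 or -0.55 and missed the fold limit, as did the TBM difference, at -0.53, with no background correction.

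Wnt5a, which drives outgrowth of the tail and limbs mainly without beta-catenin, was the ligand that differed least from PSM among the tested 7. Its brightest probe read 11.63, 11.62 and 11.72 on the CNH arrays, 11.84, 11.97 and 11.74 on the TBM arrays and 11.37, 11.27 and 11.38 on the PSM arrays. The 3 regions did not overlap, with TBM highest and PSM lowest, but the steps were small. CNH over PSM was 0.32 (SE 0.11, 95% interval 0.07 to 0.57, limma adjusted p = 0.0780). TBM over PSM was 0.51 (SE 0.11, adjusted p = 0.0113), a 1.43-fold difference that passed the p limit and missed the fold limit. CNH over TBM was -0.19, with a 95% interval of -0.44 to 0.05 and an adjusted p of 0.528. Without replicate 3 of TBM the TBM difference was 0.59 (adjusted p = 0.0190) and was called.

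The 3 Wnt5a probes did not behave alike across replicates. The second probe read 9.73, 9.63 and 6.50 on the CNH arrays, 9.90, 9.88 and 6.67 on the TBM arrays and 8.89, 8.96 and 6.33 on the PSM arrays. Replicate 3 thus lay -3.18, -3.22 and -2.59 from the mean of replicates 1 and 2 in CNH, TBM and PSM, for a mean shift of -2.99, and 1.78% of tested probes shifted as far in either direction. The brightest probe shifted by 0.00 on average and the third by -0.56. Within replicate numbers all 3 probes put TBM above PSM on 3 of 3 numbers, and the second and the third were called higher in TBM, at 0.76 (SE 0.15, limma adjusted p = 0.00573) and 0.78 (SE 0.17, adjusted p = 0.0113). For CNH over PSM they gave 0.56 (adjusted p = 0.0240), under the fold limit, and 0.38 (adjusted p = 0.155). On both, the difference was smallest in replicate 3, at 0.34 and 0.20 for TBM minus PSM, against 1.01 and 1.06 in replicate 1. The platform annotation gives the brightest and the second probe the same transcript record and the third probe another. Whether the probes read different transcripts or differ in how they hybridised was not tested.

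**Figure D2:**
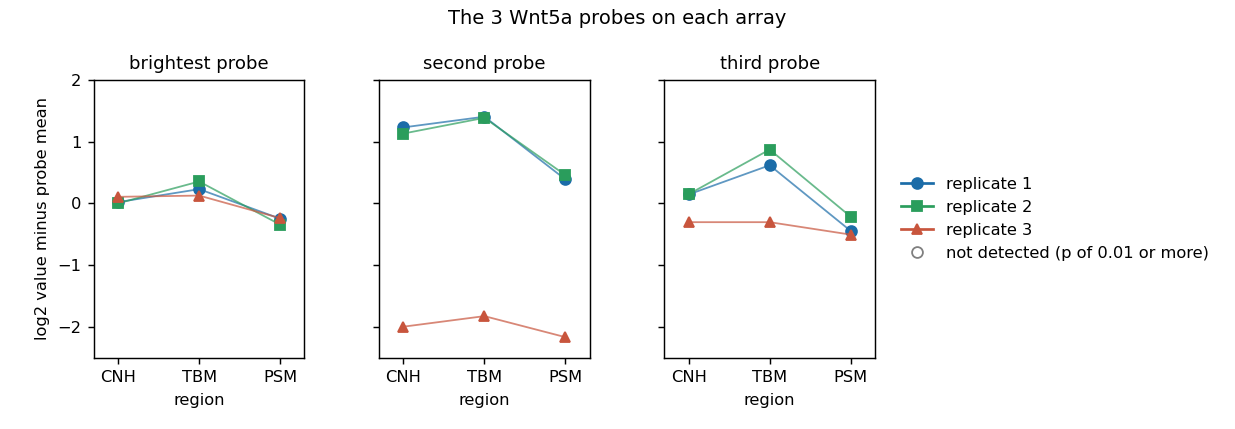
Log2 value minus the probe's own mean over 9 arrays for the 3 Wnt5a probes, by region, with lines joining arrays of the same replicate number. Replicate 3 of the second probe lies well below replicates 1 and 2 in every region, with a mean shift of -2.99, while replicate 3 of the brightest probe shifted by 0.00.

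Wnt3, the ligand that starts the primitive streak, Wnt10b, known from bone and fat, and Wnt11, known from cell movements and kidney branching, were detected on no array. Their 4 probes read between 4.15 and 4.64 on the log2 scale. Detected probes on these arrays began at 4.83 to 4.98, so no difference between regions could be measured for the 3 genes at this signal, and their transcripts may still be present below it. The third probes of Wnt6 and Wnt8a were also detected on no array.

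The named genes whose pattern over the 9 arrays was most like each ligand, by Pearson r with the means of the replicate numbers removed among 7819 genes, differed from ligand to ligand. Nearest to Wnt3a were Cyp26a1, which degrades retinoic acid, Hoxc6 and Eva1b, at 0.997 each to 3 digits. Nearest to Wnt5b were Greb1 and Dgkk at 0.999 and Prr18 at 0.998. For Wnt10a they were Macrod1 at 0.995, Dbp at 0.993 and Ndrg3 at 0.991. For Wnt4 they were Dusp16 at 0.994 and Ifitm3 and Nbdy at 0.990, for Wnt6 Tns4 at 0.995, Ctsl at 0.993 and Smim11 at 0.992, and for Wnt8a Gsta4 at 0.987, Capn10 at 0.984 and Tmem131l at 0.982. Among the ligands themselves Wnt3a and Wnt5b were most alike, at 0.987. The 9 points share their libraries and fall in 3 regions.

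The surface ectoderm and somite marker lists moved with the ligands that were higher in PSM. Of 7 markers of surface ectoderm listed, 2 were tested, and both fell in CNH and TBM against PSM. Beside the counts of this paragraph, 4.54% of all tested probes were called lower and 6.66% higher in CNH than in PSM. In TBM these shares were 4.05% and 5.37%, and 0.78% were called higher in CNH than in TBM. Trp63, the master factor of stratified epithelium, had log2 fold changes of -3.11 and -2.52, and Krt14, a basal keratin, had -2.99 and -2.70. The summed level of the list was 9.46 to 9.54 on the log2 scale in PSM, 7.41 to 7.78 in CNH and 7.55 to 8.01 in TBM, and Perp was detected on no array. Of 7 somite markers 3 were tested, Tcf15, Meox1 and Foxc2, and all 3 fell. The summed level of the list was 10.9 to 12.8 in PSM, 7.98 to 9.18 in CNH and 8.12 to 9.37 in TBM, while Pax1, Pax3 and Pax9 were detected on no array. Whether these levels came from somite cells or from the PSM itself was not tested. The part of either cell type in the levels of Wnt4, Wnt6 and Wnt8a was not tested. With the ligands that were higher in CNH and TBM moved the tail bud progenitor list, at 12.6 to 12.9 in CNH, 12.4 to 12.5 in TBM and 8.55 to 9.55 in PSM, with Hes3 detected on no array. Of 6 notochord markers 2 were tested, and both were higher in CNH than in TBM and PSM, with a summed level of 7.97 to 9.33 in CNH, 7.28 to 7.61 in TBM and 7.11 to 7.38 in PSM and Foxa2 detected on no array. These were not called in TBM over PSM. Of 5 tested endothelial genes of 7, 3 rose in CNH and 1 in TBM, with Etv2 at 1.70 and 1.35, and the summed level was 9.20 to 9.67 in CNH, 9.08 to 9.21 in TBM and 8.24 to 8.71 in PSM, with Tie1 detected on no array. Of 6 tested erythroid genes of 7, 2 rose in CNH and 1 in TBM, with Alas2 at 0.78 and 0.73. Of 3 tested hindgut genes of 8, Foxa3 rose, at 2.66 and 1.23, and Cldn4 fell, at -1.36 and -1.43. Cldn6 fell in TBM, at -0.98, and was not called in CNH, at -0.44. The summed hindgut level was 9.72 to 10.35 in CNH, 9.28 to 9.48 in TBM and 10.02 to 10.47 in PSM. This sum was lower in TBM than in PSM, and its CNH and PSM ranges overlapped. Of 8 neural tube genes Sox2 was tested, at 1.81 in CNH, which was called, and 0.28 in TBM, which was not, and the other 7 were detected on no array. The part of these cells in the levels of Wnt3a, Wnt5b and Wnt10a was not tested. Trp63 and Foxc2 passed the detection filter through PSM alone. Sox2 and the notochord marker Shh passed it through CNH alone, and Foxa3 and the notochord marker Chrd through CNH and TBM alone. For these genes the filter favoured the direction seen, so the marker counts are not independent of it.

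Of 9 further WNT genes 3 were tested, and all 3 fell in CNH and TBM against PSM. Of all tested probes, 4.54% were called lower in CNH and 4.05% in TBM. Wnt16 and Wnt7a passed the detection filter through PSM alone, which favoured a fall, so the count is not independent of the filter. Wnt16, a ligand known from bone, averaged 7.18 in PSM, 4.71 in CNH and 4.70 in TBM, with log2 fold changes of -2.46 and -2.48 (limma adjusted p = 6.07e-06 and 7.46e-06), and was detected on 1 of 3 arrays in each of CNH and TBM. Wnt7b, needed in placenta and lung, was 3.99-fold and 3.04-fold lower. Wnt7a, the dorsal ectoderm signal of the limb, was detected on no CNH or TBM array and was at least 2.21-fold and 2.14-fold lower. These 3 moved with the surface ectoderm list whose levels are given above, and its part in them was not tested. Wnt1, Wnt2, Wnt2b, Wnt8b, Wnt9a and Wnt9b did not pass the detection filter, and among them are Wnt9a, the neighbour of Wnt3a, Wnt9b, the neighbour of Wnt3, and Wnt1, the neighbour of Wnt10b.

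The rest of the pathway was read from 8 lists of 93 genes, the further ligands included, of which 88 had a probe matched by symbol and 48 were tested. Brachyury (T), a listed target that the paper names among its most CNH-enriched genes, had no probe matched by symbol and was not read here. Between CNH and PSM 13 were called higher and 11 lower, and between TBM and PSM 14 and 8, against backgrounds of 11.2% and 9.42%. By direction the backgrounds were 6.66% higher and 4.54% lower in CNH, and 5.37% and 4.05% in TBM. Wnt16, Wnt7a, Cer1, Notum, Dkk1, Dkk3 and Cdx4 passed the detection filter only through regions where they were high. The counts are therefore not independent of the filter. The median log2 fold change was 0.14 and 0.07. Between CNH and TBM 1 was called by its brightest probe, beside 1.01% of all tested probes. It was Dkk1, a secreted inhibitor of the LRP co-receptors, at least 1.27-fold lower in CNH (limma adjusted p = 0.0286). The count was 0 without CNH replicate 1 or 2, TBM replicate 1, 2 or 3, or PSM replicate 1, and 2 without CNH replicate 3. A second probe of Notum was called higher in CNH than in TBM, at 0.75 (adjusted p = 0.0486, 3 of 3 numbers), where its brightest probe also gave 0.75 (adjusted p = 0.319). Among the calls over PSM named in what follows the largest limma adjusted p was 0.0105, for Fzd7 in TBM.

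Of the genes with which cells acylate and export WNTs, 4 of 5 were tested and 0 were called by their brightest probes in the 3 comparisons. Their log2 fold changes over PSM ran from -0.17 to 0.30 in CNH and from -0.34 to 0.52 in TBM. The value of 0.52 was that of Wls, the carrier of WNTs to the cell surface (adjusted p = 0.00941, under the fold limit), and another Wls probe was called higher in TBM, at 0.61 (adjusted p = 0.00455). Receptors were split. Of 9 tested, Fzd10 (0.93 and 0.74) and Ptk7, a planar polarity co-receptor (0.91 and 1.07), rose in CNH and TBM over PSM, and Fzd2 (-1.74 and -1.81) and Fzd7 (-1.10 and -0.69) fell. Ror2 was not called, at -0.57 in CNH (limma adjusted p = 0.0244, under the fold limit) and -0.30 in TBM (adjusted p = 0.251). Rspo3, an R-spondin that strengthens WNT signals by sparing Frizzled from turnover, was the tested gene of its list of 9 and rose by 1.24 and 1.49.

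Secreted antagonists moved both ways. Of 6 tested, 3 rose and 2 fell in CNH against PSM, and 4 rose and 2 fell in TBM against PSM. Over all tested probes 6.66% were called higher and 4.54% lower in CNH, and 5.37% and 4.05% in TBM. Cer1 passed the detection filter through PSM alone, Dkk1 through TBM alone, and Notum and Dkk3 through CNH and TBM alone. For these genes the filter favoured the direction seen, so the counts are not independent of it. Notum, the enzyme that strips the lipid from WNTs, rose by 6.72-fold and 4.01-fold and was detected on 1 of 3 PSM arrays. Apcdd1, a membrane inhibitor, rose by 1.62 and 1.54. Cer1, which binds Nodal and BMP ligands and whose WNT binding is known from the frog, was at least 7.40-fold lower in CNH and had a log2 fold change of -3.07 in TBM. Sfrp1, a secreted Frizzled-related protein, gave -1.09 and -0.63. Dkk3, a divergent Dickkopf protein with no detected PSM array, rose at least 1.67-fold in CNH and at least 1.55-fold in TBM, and Dkk1 was at least 1.21-fold higher in TBM than in PSM. The list's median was 0.56 and 0.82, or 0.45 and 0.46 with genes that 1 region lacked set at their bounds.

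In the receiving cell, 8 of the 10 tested core genes were not called in CNH over PSM and 9 were not in TBM over PSM. Tcf7l1, a TCF that mostly represses, fell by 1.24 and 1.13 on the log2 scale in CNH and TBM, and Lef1 had -0.87 in CNH, which was called, and -0.22 in TBM, which was not. Lef1 differed between CNH and TBM by -0.65 (adjusted p = 0.163). Of 11 tested targets, 6 rose and 2 fell in CNH and 6 rose and 0 fell in TBM, with medians of 0.78 and 0.69. Cdx2 and Cdx4, homeobox genes of the growing axis, rose by 2.86 and 2.22 in CNH and by 2.47 each in TBM. Cdx4 passed the detection filter through CNH and TBM alone, which favoured a rise. Sp5 and Sp8, zinc finger genes that act with beta-catenin, rose by 2.09 and 1.66 in CNH and by 1.77 and 1.03 in TBM. Sp8 was also in the list of tail bud progenitor markers. Axin2, a feedback inhibitor, and Ccnd1, cyclin D1, rose by 0.83 and 0.78 in CNH and by 0.89 and 0.69 in TBM. Nkd2, another feedback inhibitor, and Dll1, a Notch ligand of the PSM, had -0.94 and -0.81 in CNH. In the planar polarity list 1 of 4 tested genes was called, Prickle2, at 0.93 and 0.64.

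**Figure D3:**
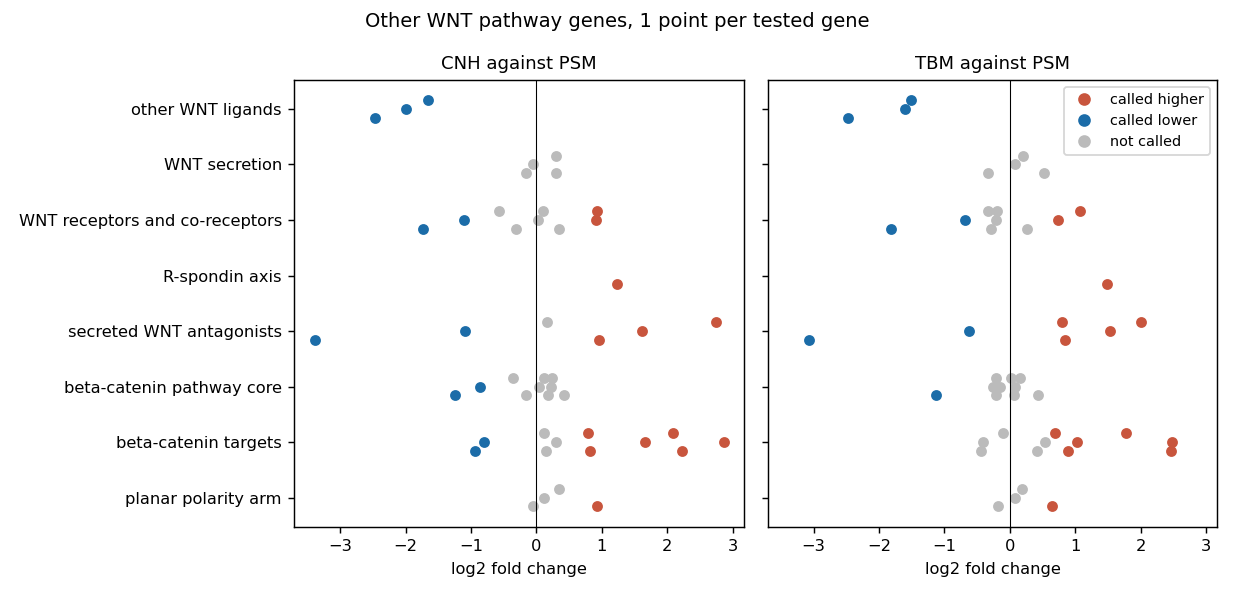
Log2 fold change over PSM of the 48 tested genes of 8 lists of other WNT pathway genes, 1 point per gene, for CNH (left) and TBM (right), with red for called higher, blue for called lower and grey for not called. The 3 further ligands lie left of 0, the 4 secretion genes are grey, and the antagonists lie on both sides, from -3.39 to 2.75 in CNH.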

How the data were processed

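Total RNA from CNH, TBM and PSM (3 arrays each) was hybridised to Illumina Mouse Ref6v2 bead arrays. The authors deposited a table of non-normalized probe intensity with a detection p-value per probe and array, and a table of log2-scale values which they had transformed (VST) and normalized (RSN) with lumi. The genome build was not given in the sources used here.

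Intensity was corrected by normexp with an offset of 16, using the negative control mean and SD inferred from the deposited detection p-values (neqc), then quantile normalized and put on the log2 scale. Probes were kept where every array of a region had a detection p-value under 0.01. limma 3.58.1 in R 4.3.3 (lmFit and eBayes) was fitted over all 9 arrays with region means and replicate number as a block, leaving 4 residual degrees of freedom, and p-values were adjusted by Benjamini-Hochberg over 12437 probes. Same-numbered arrays deviated together (r of 0.858 to 0.964), and the numbers were taken to pair the arrays. Arrays numbered 1 and 2 deviated together about as closely (0.863 to 0.893). These values therefore set replicate 3 apart and cannot show that the arrays of numbers 1 and 2 are paired. Probe names came from the platform annotation: 34885 probes had 1 symbol, 18 had several and were not named, and 10378 had none. The brightest tested probe stood for a gene. Where a region detected a probe on no array, the fold is a lower bound. The fit was tested on simulated data for CNH against PSM. It called 32.8% of probes changed 1.5-fold, 82.1% of those changed 2-fold and 100% of those changed 4-fold. Changes near the fold limit could therefore be missed. The members and lists were chosen with earlier results of these data known. Genes named were all 10 ligands, all tested further ligands, up to 4 called genes per list by largest change, and the 3 nearest genes by correlation for each called ligand. Wls, Ror2, Dkk1, Dkk3, Nkd2, Dll1, Axin2 and Ccnd1 lie outside this rule and were named after their values were seen. Markers were named from lists. Promoter windows came from RefSeq (GRCm38.p6), which matched 7 of the 10 ligands; Wnt5a, Wnt8a and Wnt10a had none. Alternatives covered the deposited values, background correction, the filter, the block, the call limits and leaving out or averaging arrays.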

Additional observations from a re-analysis of the deposited data

How the results depend on the processing

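Of 22 alternatives, none turned the direction of a called ligand against PSM. Wnt3a and Wnt5b were called against PSM in all 22. The number of ligands called for CNH against PSM (6) fell to 2 on the deposited values and to 3 without the replicate block, and to 3 of the 4 that could be tested with probes detected on all 9 arrays. For TBM against PSM (6) it fell to 2 on the deposited values, 2 without the replicate block, 3 with no background correction and 3 with probes detected on all 9 arrays. On the deposited values Wnt4, Wnt6, Wnt8a and Wnt10a kept adjusted p of 0.00504 to 0.0217 for CNH and missed the fold limit. The other pathway genes called for CNH against PSM (24) were 11 on the deposited values, 11 without the replicate block and 15 at an adjusted p under 0.01 with a 2-fold limit, and those for TBM against PSM (22) were 8, 10 and 14. For CNH against TBM (1) they were 0 on the deposited values, without the block, with an offset of 50, with no filter, with no background correction, with probes detected on all 9 arrays, with replicates 1 and 2 or 1 and 3 averaged and at the stricter limits, and 2 without replicate 3 of all regions and with replicates 2 and 3 averaged. Leaving out 1 array at a time gave 6 to 6, 6 to 7 and 0 to 0 ligands for CNH against PSM, TBM against PSM and CNH against TBM, and 0 to 2 other pathway genes for CNH against TBM. With replicates 1 and 2 averaged to 1 sample, as if they were technical repeats, 6 ligands were called in each comparison with PSM. The cause was not tested.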
